A study of Mus musculus with 18 samples.

Results

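The response of wild-type (WT) naive CD4+ T cells to 3 h of T cell receptor (TCR) stimulation was measured by comparing 3 libraries of stimulated cells with 3 libraries of the same sorted population lysed directly after sorting. These 6 libraries were taken by their labels from the 18 of the series, and all 55284 named genes of the count table were considered, of which 33795 passed the filter on low counts and were tested. The cells came from mixed bone marrow chimeras, in which irradiated BoyJ hosts received marrow of WT mice together with marrow of DKO mice, which lack Nr4a1 and Nr4a3 in the germline (Nr4a1-/- Nr4a3-/-). All donors were on the C57BL/6 background, and the WT and DKO cells of a chimera matured in the same host. Naive cells were sorted from spleen and lymph nodes as CD25-CD4+ cells that were CD62Lhi, CD44lo, FR4lo and CD73lo. The stimulated samples were then kept for 3 h on plates coated with anti-CD3 at 8 μg/ml and anti-CD28 at 2 μg/ml. Each library was made from the RNA of 2000 cells. Chimeras 10, 11 and 12 each gave 1 naive and 1 stimulated library, so every comparison is within a host. Cells kept for 3 h without antibody were not analysed here, so the effect of the antibodies and that of the time in culture cannot be told apart.

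Naive CD4+ T cells are small, quiescent cells that circulate through lymphoid organs and wait for their antigen. Crosslinking of the TCR and CD28 starts calcium, MAP kinase and NF-kB signaling, which within minutes to hours switches on immediate early genes, then cytokines and receptors, and then the machinery for growth that precedes the first division. Many of the early genes encode inhibitors that limit the same signaling.

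The labels of the stimulated libraries were checked against 3 genes that TCR signaling is known to induce, namely Nr4a1, Irf4 and Egr2. In the naive libraries of chimeras 10, 11 and 12 the level of Nr4a1 was 74.8, 89.8 and 86.6 TPM (transcript abundance scaled for gene length and library size), and in the stimulated libraries it was 2927, 4788 and 5443 TPM. Irf4 stood at 4.19, 4.77 and 5.39 TPM in naive cells and at 538, 528 and 522 TPM after stimulation. Egr2 stood at 36.7, 36.9 and 38.6 TPM in naive cells and at 508, 673 and 697 TPM after stimulation. For these genes the lowest stimulated library lay far above the highest naive library, so the 3 markers matched all 6 labels.

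The 6 libraries held 23432488 to 39752234 counts on named genes. The naive and stimulated libraries of chimera 12 stood apart from the rest of the series in having fewer genes with 10 or more counts (21312 and 19085, against 26598 to 31028 in the other 4). Genes of olfactory and vomeronasal receptors, families that serve the sense of smell, took 807 and 572 CPM (counts scaled to a common library size) in these libraries and 1417 to 3253 CPM in the other 16 of the series, and the part of this in the results was not tested. Within a chimera, the median log2 ratio of stimulated to naive CPM over genes with a mean log2 CPM over 1 was -0.09, -0.12 and 0.45 in chimeras 10, 11 and 12, so single-chimera ratios sit higher in chimera 12. The summed level of 8 B cell markers was 19.7 to 33.3 TPM in naive and 11.7 to 31.7 TPM in stimulated libraries, and 0 of the 8 were called. The sum of 8 CD8 T and NK cell markers was lower after stimulation, at 56.9 to 67.8 TPM against 100 to 118 TPM, with Klrd1 and Gzma called lower. The part of these markers in the other results was not tested. The call of Klrd1 was lost without chimera 10 or 11 and on log2(TPM + 0.1) in limma-trend. That of Gzma was lost without chimera 10, without chimera 12 and without the WT libraries of chimera 12. The 10 myeloid markers summed to 14.8 to 39 TPM in naive and to 10.3 to 26.4 TPM in stimulated libraries. Itgam was called lower, a call that was lost without chimera 10 or 11. Of 7 regulatory T cell markers, Il2ra, Ctla4, Lrrc32 and Tnfrsf18 were called higher while Foxp3, Ikzf2 and Ikzf4 were not, and the sum went from 160 to 178 TPM to 518 to 678 TPM. Activated conventional T cells are also known to express the first 2 of these. The CD4 T cell identity of the cells was plain in both groups. The 8 CD4 T cell markers summed to 10900 to 13400 TPM in naive and to 13400 to 14600 TPM in stimulated libraries. Of these markers 2 were called higher and 1 lower. Cd3e stood at 728 ± 48.6 TPM in naive and 720 ± 30.4 TPM in stimulated cells (SD, n = 3). Cd4 stood at 754 ± 18.3 and 498 ± 29.6 TPM and was not called.

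Stimulation changed a large share of the transcriptome. Of the 33795 genes tested, 2408 rose and 1619 fell at an adjusted p under 0.05 (edgeR's quasi-likelihood test, with the chimera as a block and Benjamini-Hochberg adjustment), which is 7.13% and 4.79% of the genes tested. Among the 15067 genes with a mean log2 CPM over 1, 15% were called higher and 10.1% lower. With a log2 fold change over 1.5 and a mean log2 CPM over 1 as further conditions, 684 genes rose (2.02%). Genes called higher made up 59.8% of all calls, but 41% with no filter on low counts, 40.3% when only the libraries of the groups compared were fitted, 47.7% on log2(TPM + 1) in limma-trend and 77.8% without chimera 10. On the deposited TPM, the 3 stimulated libraries lay wholly above the 3 naive ones for 12% of the genes tested and wholly below for 13.2%. Without the naive and stimulated WT libraries of chimera 12, 2280 genes were called higher and 2100 lower. In bulk samples, fewer cells expressing a gene and less of its RNA per cell cannot be told apart.

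**Figure D1:**
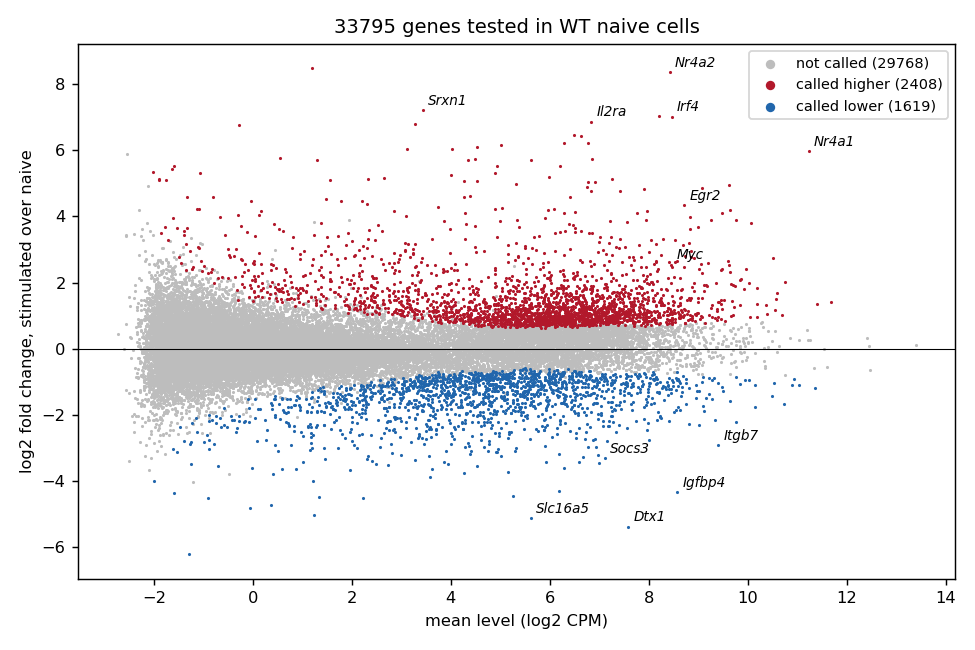
Each point is 1 of the 33795 genes tested, placed by its mean level over all libraries of the fit (log2 CPM, horizontal) and by its log2 fold change of WT stimulated over WT naive cells (vertical). The 2408 genes called higher are red and the 1619 called lower are blue. Nr4a2 at 8.36 and Irf4 at 7.01 lie far above 0, and Dtx1 at -5.37 and Igfbp4 at -4.34 far below.

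NR4A orphan receptors and EGR zinc finger factors are immediate early transcription factors, and NAB proteins bind EGR factors and repress their targets. Of the 9 listed genes, 8 were called higher and 0 lower, against 7.13% of all genes tested, and the median log2 fold change was 3.80, against 0.03 over all genes tested. Nr4a2 rose most among them, from 1.11, 1.67 and 1.83 TPM in the naive libraries to 296, 501 and 471 TPM in the stimulated libraries of chimeras 10, 11 and 12. Its log2 fold change was 8.36 ± 0.50 (SE, adjusted p = 5.99e-11, edgeR's quasi-likelihood test). Nr4a2 was thus nearly silent in all 3 naive libraries and abundant in all 3 stimulated ones. Nr4a3 rose by 7.03 ± 0.33 and Nr4a1 by 5.97 ± 0.39 on the log2 scale, the latter to a mean level of 4386 ± 1305 TPM (SD, n = 3). Nr4a1 lies on mm10 at chr15:101254269-101274795 and Nr4a2 at chr2:57106830-57124003. Egr1 rose from 115 ± 2.63 to 1326 ± 240 TPM, Egr2 from 37.4 ± 1.02 to 626 ± 103 TPM and Egr3 from 8.41 ± 0.53 to 93.8 ± 18 TPM. Nab2 rose from 69.4 ± 8.46 to 399 ± 88.4 TPM. Egr4 was the exception, with 0.131 to 0.309 TPM in naive and 0.343 to 0.953 TPM in stimulated cells and an adjusted p of 0.0855 (edgeR's quasi-likelihood test).

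**Figure D2:**
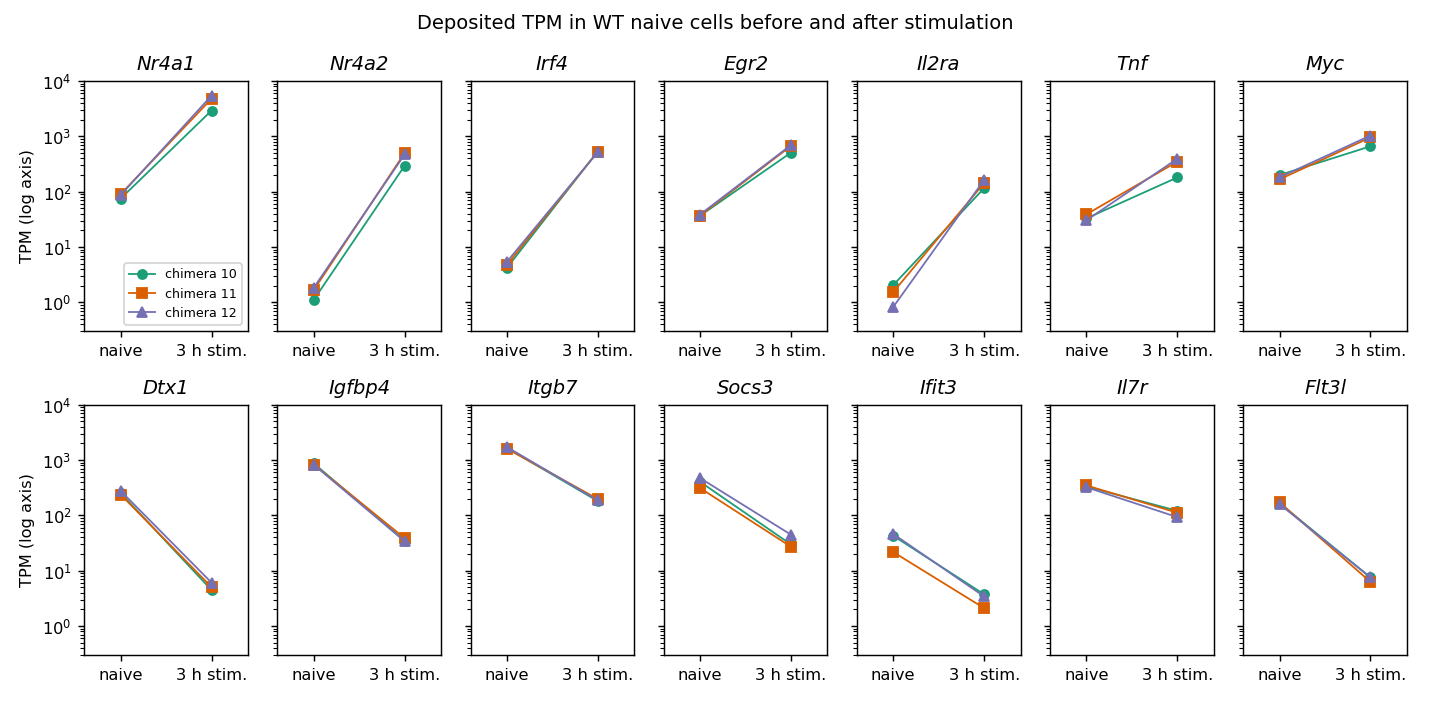
Deposited TPM (log axis) of 14 genes in the naive and the 3 h stimulated library of each chimera, with the libraries of a chimera joined by a line. In the upper row every line goes up, with Nr4a1 reaching 2927 to 5443 TPM. In the lower row every line goes down, with Dtx1 falling to 4.47 to 6.08 TPM.

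The interferon regulatory factors did not move together. Irf4, which is known to grade the T cell response by the strength of TCR signaling, had the smallest adjusted p of all genes called higher under the naming rule (log2 fold change 7.01 ± 0.31, adjusted p = 4.79e-13, edgeR's quasi-likelihood test). Its 3 stimulated libraries lay between 522 and 538 TPM, so the chimeras differed little. Irf4 lies on mm10 at chr13:30749226-30766976. Irf8 rose by 1.49 ± 0.30 on the log2 scale, from 4.21 to 7.66 TPM in naive to 10.8 to 16.6 TPM in stimulated cells. Irf7, a factor that amplifies interferon responses, went the other way, from 158, 113 and 183 TPM in the naive libraries to 22.2, 20.9 and 29 TPM in the stimulated ones, and Irf1 and Irf9 also fell.

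AP-1 is a dimer of FOS and JUN family proteins that acts with NFAT at many activation genes. Of the 15 AP-1, ATF and BATF factors tested, 11 were called higher (73.3%, against 7.13% of all genes tested) and 0 lower. Their median log2 fold change was 1.74, and 9 were called higher without chimera 11. Fos rose from 9.41, 15.9 and 12.6 TPM to 148, 197 and 245 TPM, a log2 fold change of 4.23 ± 0.29. Fosl2 rose by 5.71 ± 0.37 and Atf3, a stress-responsive ATF factor, by 6.17 ± 0.55. The JUN proteins rose less, with Jun at 1.97 ± 0.34 and Junb at 1.74 ± 0.30 on the log2 scale. Batf, a partner of IRF4 in activated T cells, was not called, with 84.1, 96.1 and 99.6 TPM in naive and 82.0, 71.5 and 85.4 TPM in stimulated cells. Of the 10 NFAT and calcineurin genes tested, Nfatc1 and Rcan3 were called higher (20%) and Nfatc2, Nfatc3 and Ppp3cc lower (30%). Genes with a mean log2 CPM over 1 had shares of 15% and 10.1%, so the higher share lay near that of such genes. Without chimera 10 or without chimera 11, 1 gene of the NFAT list was called lower.

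NF-kB factors reach the nucleus when inhibitor proteins of the IkB family are degraded, and several of these inhibitors are themselves NF-kB targets. Of the 13 subunits and inhibitors tested, 10 were called higher and 1 lower, with a median log2 fold change of 1.75. Rel, the subunit most tied to T cell activation, stood at 20.2, 29.2 and 19.1 TPM in naive and at 152, 173 and 174 TPM in stimulated cells. Nfkb2 rose from 78.5 ± 11.0 to 552 ± 74.0 TPM and Nfkb1 from 18.4 ± 1.99 to 86.4 ± 29.1 TPM. Among the inhibitors, Nfkbid rose from 132 ± 7.5 to 1618 ± 404 TPM, Tnfaip3 (A20, a ubiquitin-editing enzyme that ends NF-kB signaling) from 46.5 ± 4.22 to 378 ± 24.6 TPM, and Nfkbia from 545 ± 40.4 to 1312 ± 253 TPM. Bcl3, an atypical IkB protein, fell, from 152 ± 22.4 to 48.3 ± 12.0 TPM, a call that was lost without chimera 10. The 300 bases around the start of Nfkbia (250 before and 50 after, RefSeq, GRCm38.p6, chr12:55492598-55492897, minus strand) are shown because the window holds a match, on the opposite strand, to the kappaB site. A kappaB match, on either strand, was found in 7 of the 10 listed genes with a promoter in the table, against 8.18% of all promoters in the table, 9.02% of the promoters of all genes tested and 10.7% to 11.4% of those of genes called lower and higher at a mean log2 CPM over 1. The match is in capitals.
Nfkbia: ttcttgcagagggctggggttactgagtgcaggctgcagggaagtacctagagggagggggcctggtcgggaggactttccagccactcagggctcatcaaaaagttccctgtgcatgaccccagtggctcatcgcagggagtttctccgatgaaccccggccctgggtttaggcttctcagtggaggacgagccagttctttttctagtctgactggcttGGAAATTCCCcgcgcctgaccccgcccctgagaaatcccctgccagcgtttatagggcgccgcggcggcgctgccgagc

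Of the 23 secreted cytokine and chemokine genes tested, 7 were called higher (30.4%, against 7.13% of all genes tested) and 0 lower, with a median log2 fold change of 1.04. Without the WT libraries of chimera 12 the counts were 6 and 1. Tnf rose from 32.8, 38.9 and 30.3 TPM to 181, 349 and 394 TPM, a log2 fold change of 3.48 ± 0.38. Lif, a cytokine of the IL-6 family, rose by 6.02 ± 0.56 on the log2 scale to 17.0 ± 5.42 TPM. Tgfb1, an inhibitory cytokine gene already at 61.5 to 63.5 TPM in naive cells, rose to 140 to 185 TPM. Il2, the main T cell growth factor, stood at 1.51, 1.48 and 0.685 TPM in naive and at 4.59, 7.38 and 11.1 TPM in stimulated cells (log2 fold change 2.95 ± 0.55, adjusted p = 0.000415, edgeR's quasi-likelihood test). Its 2 groups did not overlap, but its level after 3 h stayed low beside that of Tnf. Ifng, the effector cytokine of Th1 cells, was not called and stayed at or under 0.512 TPM in all 6 libraries. Csf2, Ccl4 and Xcl1 were the other genes called higher.

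Receptors for growth factors and costimulators changed in both directions. Il2ra, which encodes CD25 and completes the high-affinity IL-2 receptor, rose from 2.04, 1.53 and 0.823 TPM to 116, 143 and 163 TPM (log2 fold change 6.85 ± 0.38, adjusted p = 1.89e-11, edgeR's quasi-likelihood test). The naive libraries were low for this gene, and the sort had taken CD25- cells. Il2rb and Il2rg, the other IL-2 receptor chains, and Stat5a and Stat5b, which signal below it, were also called higher. Il7r, the receptor for the survival factor IL-7, fell from 333, 348 and 322 TPM to 121, 112 and 92.9 TPM. Il6ra, Il10ra, Il18r1 and Il27ra fell as well. Over the 25 cytokine receptor and STAT genes tested, 9 were called higher (36%) and 7 lower (28%). Genes with a mean log2 CPM over 1 had shares of 15% and 10.1%. The list had 4 higher calls with RLE size factors and 2 without chimera 11.

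Of the 18 TNF and TNF receptor superfamily genes tested, 10 were called higher (55.6%) and 1 lower (5.56%). All genes tested had shares of 7.13% and 4.79%. Without chimera 11, 8 of the list were called higher. Tnfsf11 (RANKL) rose from 4.33, 1.95 and 2.94 TPM to 125, 220 and 222 TPM, a log2 fold change of 6.21 ± 0.42. Tnfrsf9 (4-1BB) rose from 19.4 ± 3.73 to 436 ± 51.2 TPM and Tnfrsf4 (OX40) from 29.7 ± 4.16 to 207 ± 40.6 TPM. Cd40lg, through which helper T cells activate B cells, was already abundant in naive cells at 285 to 350 TPM and stood at 754 to 1175 TPM after stimulation. The death ligand gene Tnfsf10 (TRAIL) was the member called lower, and 2 were without chimera 12. Cd69, an early activation antigen that retains cells in lymphoid tissue, rose from 50.5 ± 4.07 to 718 ± 170 TPM.

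Costimulatory and inhibitory receptors were called higher for 16 of 21 genes (13 without chimera 11) and lower for 2, with a median log2 fold change of 1.92. The costimulator gene Icos rose from 37.3, 40.8 and 45.8 TPM to 340, 286 and 327 TPM. Pdcd1, which encodes the inhibitory receptor PD-1, rose from 19.8, 14.8 and 16.7 TPM to 122, 194 and 209 TPM. Ctla4 rose from 2.33, 3.08 and 3.99 TPM to 35.6, 25.9 and 32.3 TPM. These receptor genes thus rose with costimulatory and with inhibitory roles alike, and the genes of the PD-1 ligands, Cd274 and Pdcd1lg2, rose too. Lag3 was not called and stayed at 0.754 to 1.15 TPM in all 6 libraries. Cd226 and Slamf6 were called lower, and 1 gene of the list was without chimera 10 or 11.

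Genes that limit TCR signaling also rose within the 3 h. MAP kinase phosphatases and Sprouty family proteins, which act against ERK signaling, were called higher for 10 of 14 genes and lower for 1, with a median log2 fold change of 2.37. Dusp4 rose from 0.387, 0.360 and 0.500 TPM to 19.4, 20.1 and 18.5 TPM, and Spry1 from 0.547, 1.12 and 2.83 TPM to 84.3, 111 and 133 TPM. Dusp7 was the member called lower. Of 24 other inhibitors of TCR signaling, 10 were called higher (7 without chimera 11), with the ubiquitin ligase gene Cblb and the phosphatase gene Ptpn22 among them. In this list 2 were called lower (5 without chimera 12, and 1 without chimera 10 or 11). Socs3, a feedback inhibitor of IL-6 family signaling, was a member that fell, from 405, 312 and 472 TPM to 29.8, 27.1 and 44.7 TPM (log2 fold change -3.30 ± 0.28). Rgs16, which shortens G protein signaling, rose by 6.46 ± 0.46. RNA decay factors were called higher for 6 of 10 genes (3 with RLE size factors or without chimera 11), with Zc3h12a (Regnase-1) rising from 21.0 ± 1.15 to 49.5 ± 5.46 TPM.

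Helper T cell fate is set by lineage factors, and 11 of the 27 tested were called higher (40.7%) and 2 lower (7.41%). For comparison with this list and those below, genes with a mean log2 CPM over 1 had shares of 15% and 10.1%. Bhlhe40, a regulator of cytokine production, rose from 1.69, 1.05 and 0.978 TPM to 25, 36.3 and 40.5 TPM. Bcl6, the factor of follicular helper cells, rose from 13.1 ± 1.37 to 114 ± 9.49 TPM. Tbx21, which encodes the Th1 factor T-bet, rose from 0.654 ± 0.527 to 3.80 ± 0.551 TPM, still a low level. Runx3 and Zbtb7b (ThPOK), known for the CD8 and CD4 lineage choice, both fell, Runx3 from 48.5 ± 4.8 to 8.72 ± 0.543 TPM and Zbtb7b from 61.9 ± 1.65 to 15.8 ± 1.28 TPM. Gfi1, a zinc finger repressor, rose from 23.9, 15.9 and 22.6 TPM to 446, 523 and 533 TPM, and Crem, a cAMP-responsive factor, from 6.40 ± 1.12 to 185 ± 23.9 TPM. Of the 15 BCL-2 family genes tested, 8 were called higher (53.3%) and 1 lower (6.67%), and 4 and 0 without chimera 11. The rises included the survival gene Bcl2l1 (17.5 ± 3.28 to 33.4 ± 8.29 TPM) and the death-promoting gene Bcl2l11 (BIM, 28.8 ± 5.04 to 76.2 ± 15.3 TPM). Of the 19 chemokine and homing receptor genes tested, 7 were called higher (36.8%) and 6 lower (31.6%), or 4 higher without chimera 11. Among them Ccr8 rose from 6.66, 8.27 and 4.17 TPM to 195, 240 and 241 TPM.

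Of the 21 genes of the proximal TCR signaling machinery, 6 were called higher (28.6%) and 3 lower (14.3%, 5 genes without chimera 12), with a median log2 fold change of 0.22. Over all genes with a mean log2 CPM over 1 these shares were 15% and 10.1%. Themis, a regulator of TCR signaling, fell from 45.4, 55.8 and 48.8 TPM to 9.15, 6.59 and 6.44 TPM. Cblb rose from 50.8, 59.1 and 54.9 TPM to 427, 338 and 326 TPM.

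Several lists of the growth machinery rose, but not all did. Of the 12 genes of the Myc, Max and Mxd network, 2 were called higher (16.7%) and 1 lower. Of the 25 cholesterol and lipid synthesis genes, 8 were called higher (32%) and 4 lower (16%), with a median log2 fold change of 0.04. Genes with a mean log2 CPM over 1 had shares of 15% and 10.1%. Myc, which drives growth in activated lymphocytes, stood at 200, 167 and 181 TPM in naive and at 661, 958 and 1033 TPM in stimulated cells (log2 fold change 2.54 ± 0.31). Of the 32 ribosome biogenesis genes tested, 32 were called higher and all 32 rose within each of the 3 chimeras, with a median log2 fold change of 1.52. All 32 stayed called without the WT libraries of chimera 12, and 21 without chimera 11. Nop2, a nucleolar methyltransferase of ribosomal RNA, rose from 117 ± 5.48 to 362 ± 48.4 TPM. The ribosomal protein genes behaved differently: of 29 tested, 0 were called higher and 1 lower (0 lower without the block, without chimera 10 or without chimera 11), and their median of 0.04 moved between -0.24 and 0.41 over the alternative fits. The median of the ribosomal protein genes was -0.58, 0.28 and 0.38 within chimeras 10, 11 and 12. The 300 bases around the start of Nop2 (RefSeq, GRCm38.p6, chr6:125131633-125131932, plus strand) are shown for the E-box CACGTG, the letters that Myc with Max is known to bind. This hexamer was found in 8 of 27 ribosome biogenesis promoters, against 7.24% of all promoters, 8.36% of those of all genes tested, 14% of those called higher and 8.28% of those called lower at a mean log2 CPM over 1. The same hexamer lay in 4 of 12 tRNA synthetase promoters and in 4 of 22 promoters of the folate and nucleotide genes. It was thus not particular to ribosome biogenesis. The E-box of Nop2 is in capitals.
Nop2: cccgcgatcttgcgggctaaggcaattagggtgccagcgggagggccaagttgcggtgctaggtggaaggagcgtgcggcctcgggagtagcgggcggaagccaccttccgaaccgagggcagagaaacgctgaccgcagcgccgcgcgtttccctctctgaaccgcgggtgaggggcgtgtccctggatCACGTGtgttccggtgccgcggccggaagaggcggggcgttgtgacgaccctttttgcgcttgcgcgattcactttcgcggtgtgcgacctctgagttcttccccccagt

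**Figure D3:**
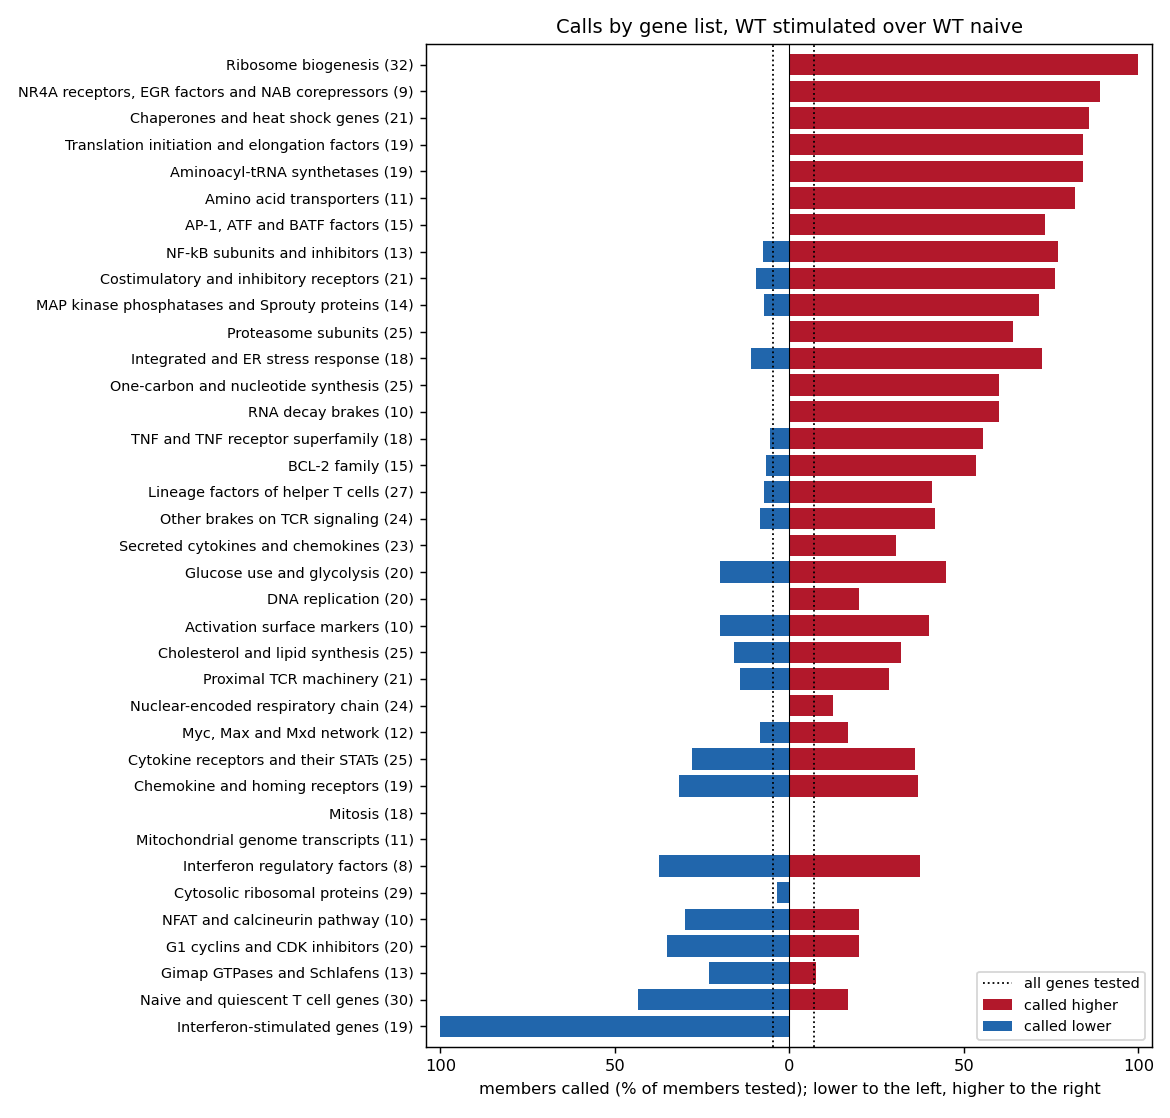
For each gene list, with the number of members tested in parentheses, bars show the percentage of members called higher (red, to the right) and lower (blue, to the left), and dotted lines mark 7.13% and 4.79% of all genes tested. Ribosome biogenesis was called higher in full and interferon-stimulated genes lower in full, while no mitosis or mitochondrial genome transcript was called.

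Supply of amino acids and their loading onto tRNA rose together. Of the 11 amino acid transporter genes tested, 9 were called higher and 0 lower (median log2 fold change 2.40). Of the 19 aminoacyl-tRNA synthetase genes, 16 were called higher and 0 lower (median 1.59). The synthetase count was 11 without chimera 11 and 13 with RLE size factors. Slc7a5 and Slc3a2 encode the subunits of the transporter for large neutral amino acids. Slc7a5 rose from 100, 101 and 88.2 TPM to 885, 997 and 1178 TPM, and Slc3a2 from 130.5 ± 8.58 to 761 ± 131 TPM. Gars, the glycyl-tRNA synthetase gene, rose from 155 ± 5.98 to 715 ± 89.2 TPM and Tars, that for threonine, from 72.3 ± 1.19 to 307 ± 21.2 TPM. Bcat1, a branched-chain aminotransferase gene chosen by the size of its change, rose from 0.569, 1.27 and 0.389 TPM to 24.3, 34.2 and 33.4 TPM. Genes of the integrated and endoplasmic reticulum stress responses, in which ATF4 also serves amino acid supply, were called higher for 13 of 18 and lower for 2 (1 without chimera 10 or 11), with Trib3 rising from 22.5 ± 1.68 to 153 ± 41.9 TPM. The promoter of Tars (RefSeq, GRCm38.p6, chr15:11399609-11399908, minus strand) is shown for its match to TGATGNAA, the core of the C/EBP-ATF response element that ATF4 is known to bind. These letters, on either strand, were found in 5 of 12 tRNA synthetase promoters and 5 of 18 stress response promoters, against 4.06% of all promoters, 3.31% of those of all genes tested and 2.78% and 2.90% of those called higher and lower at a mean log2 CPM over 1. The match, on the opposite strand, is in capitals. This window also holds an E-box, at bases 270 to 275, which is left in lower case.
Tars: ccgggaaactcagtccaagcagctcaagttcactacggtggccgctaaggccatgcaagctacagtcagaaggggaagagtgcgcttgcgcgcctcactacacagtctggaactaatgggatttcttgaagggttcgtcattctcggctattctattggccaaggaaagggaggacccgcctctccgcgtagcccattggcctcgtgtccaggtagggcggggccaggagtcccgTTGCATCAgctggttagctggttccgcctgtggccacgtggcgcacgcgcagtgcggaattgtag

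Other parts of the protein and nucleotide supply followed. Translation initiation and elongation factors were called higher for 16 of 19 genes, chaperones and heat shock genes for 18 of 21, and proteasome subunits for 16 of 25, with 0 called lower in each list. Without chimera 11 these counts were 9, 11 and 1, and the proteasome count was 3 with RLE size factors. Hspa5, the chaperone BiP of the endoplasmic reticulum, rose from 319 ± 1.37 to 1043 ± 140 TPM. In the folate and nucleotide pathways, 15 of 25 genes were called higher (12 without chimera 11) and 0 lower. Mthfd2, a mitochondrial folate enzyme, rose from 86.3 ± 2.66 to 402 ± 68.2 TPM and Shmt2, which feeds it from serine, from 147 ± 13.7 to 746 ± 113 TPM. Of the 20 glucose and glycolysis genes, 9 were called higher (45%) and 4 lower (20%). Genes with a mean log2 CPM over 1 had shares of 15% and 10.1%. The list had 5 and 2 calls without chimera 11, and 1 lower without chimera 10. Hk2, the inducible hexokinase, rose from 0.933, 0.802 and 0.0492 TPM to 3.70, 4.62 and 2.62 TPM, a low level, and Eno1, Eno3, Pfkm and Aldoc were called lower.

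Genes of the cell cycle were described as 3 lists. Of the 18 mitosis genes tested, 0 were called by edgeR's quasi-likelihood test in either direction, with a median of -0.06 that moved between -0.26 and 0.18 over the alternative fits, among which at most 1 gene was called. Of the 20 DNA replication genes, 4 were called higher (Pcna, Mcm5, Ung and Cdt1) and 0 lower. The 20% called higher compares with 7.13% of all genes tested and 15% of those with a mean log2 CPM over 1. The higher calls became 1 without chimera 11 and 2 with RLE size factors, and 2 genes were called lower without chimera 12. Of the 20 G1 cyclins, their inhibitors and related factors tested, 4 were called higher (20%) and 7 lower (35%). Over all genes with a mean log2 CPM over 1 these shares were 15% and 10.1%. The CDK inhibitor gene Cdkn1a rose, and Ccnd3, the cyclin D3 gene, fell from 117 ± 6.74 to 50.4 ± 6.35 TPM. Without chimera 10 or without chimera 11, 4 of the list were called lower. The higher calls were 2 without chimera 11 and 7 without chimera 12. The call of Ccnd3 was lost with RLE size factors and without chimera 10 or 11. Of the 11 mitochondrial genome transcripts, 0 were called. Of the 24 nuclear genes of the respiratory chain, 3 were called higher (Cycs, Uqcrfs1 and Atp5d). This 12.5% of the list lay above the 7.13% of all genes tested. It lay below the 15% of genes with a mean log2 CPM over 1, a level that all 24 reached. That count was 1 without chimera 11, 5 without chimera 12 and 2 with RLE size factors.

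**Figure D4:**
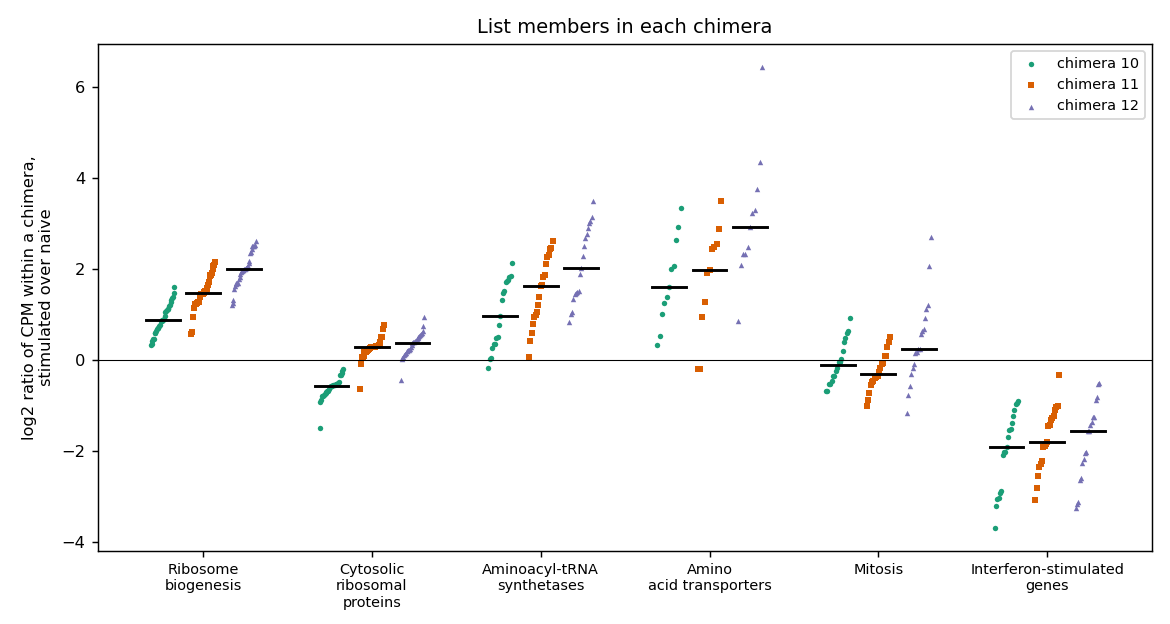
Each point is a member of the list named below it, given as the log2 ratio of CPM in the stimulated over the naive library of 1 chimera. Black bars are medians. Ribosome biogenesis medians were 0.88, 1.46 and 1.99 and interferon-stimulated gene medians -1.93, -1.80 and -1.58 in chimeras 10, 11 and 12, while the ribosomal protein medians lay on both sides of 0.

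Among the genes that fell by the naming rule, Dtx1 had the largest fold. Dtx1, which encodes Deltex1, an E3 ubiquitin ligase, fell from 254, 238 and 277 TPM in the naive libraries of chimeras 10, 11 and 12 to 4.47, 5.05 and 6.08 TPM in the stimulated ones. Its log2 fold change was -5.37 ± 0.31 (adjusted p = 4e-11, edgeR's quasi-likelihood test), and it lies on mm10 at chr5:120680202-120711927. Slc16a5, a monocarboxylate transporter family gene, fell from 149 ± 8.36 to 3.83 ± 0.91 TPM, and Flt3l, the gene of the FLT3 ligand, from 166 ± 5.91 to 7.12 ± 0.74 TPM. Igfbp4, a secreted binding protein for insulin-like growth factors, fell from 871, 829 and 823 TPM to 34.7, 38.6 and 34.0 TPM. For these 4 genes each stimulated library lay far below each naive one. The naming rule picked large falls shared by every chimera, so this separation is no separate support for them. Emp3, Vim, Rab37, Treml2, E2f2 and Ccdc69 were other genes that fell under the rule.

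Of 30 genes tied to naive and quiescent T cells, 13 were called lower (43.3%) and 5 higher (16.7%), with a median log2 fold change of -0.52. Over all genes tested these shares were 4.79% and 7.13%, and over genes with a mean log2 CPM over 1 they were 10.1% and 15%. Without chimera 10 or without chimera 11, 8 of the list were called lower. The higher calls became 1 with RLE size factors, 0 without chimera 11 and 8 without chimera 12. The factor Klf2, which keeps T cells quiescent and recirculating, fell from 1190, 969 and 1393 TPM to 449, 401 and 498 TPM. Its target S1pr1, the receptor for exit from lymphoid organs, fell as well, from 1269 ± 135 to 604 ± 138 TPM. The calls of Klf2 and S1pr1 were lost without chimera 10 or 11, and that of S1pr1 also with RLE size factors. Itgb7, an integrin chain for homing to the gut, fell from 1652, 1604 and 1721 TPM to 181, 197 and 186 TPM. Tcf7 and Lef1, factors of the naive state, were also called lower. Ccr7, the lymph node homing receptor, was not called and stood at 2034 to 2810 TPM in naive and 2571 to 3234 TPM in stimulated cells. Satb1, Bach2, Id3, Btg2 and Tob1 were the members called higher, Id3 in chimeras 11 and 12 but not in 10. At this time the transcripts for the activation and sort markers Cd44 and Nt5e (CD73) were not called, with Cd44 at 13.6 ± 4.28 and 12.7 ± 1.39 TPM, while Izumo1r (FR4) rose from 59.6 ± 18.9 to 183 ± 47.3 TPM. Foxp3, the factor of regulatory T cells, was not called and stayed at or under 1.6 TPM.

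Interferon-stimulated genes encode antiviral proteins and are held at a basal level by tonic interferon signaling. Of the 19 tested, 19 were called lower and 0 higher, against 4.79% of all genes tested called lower, and the stimulated libraries lay wholly below the naive ones for all 19, against 13.2% of all genes. Their median log2 fold change was -1.67. Ifit3 fell from 42.8, 21.7 and 46.1 TPM to 3.73, 2.10 and 3.41 TPM, and Ifit1 from 71.8, 39.8 and 84.0 TPM to 10.1, 6.94 and 6.14 TPM. Isg15, a ubiquitin-like modifier, fell from 89.8, 61.9 and 105 TPM to 13.5, 25 and 28.9 TPM, and its call was lost without chimera 10. In the naive libraries chimera 11 was the lowest for these 3 genes, and each stimulated library still lay under it. Rsad2 fell least of the genes named here, from 6.37 ± 1.20 to 3.00 ± 1.03 TPM, and its call was lost without chimera 10 or 11. The number called lower was 18 without the WT libraries of chimera 12, 17 with RLE size factors and 12 to 18 when a chimera was left out.

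The promoters of Isg15 (RefSeq, GRCm38.p6, chr4:156200769-156201068, minus strand) and Ifit3 (chr19:34583279-34583578, plus strand) are shown for the interferon-stimulated response element, searched as GAAANNGAAA on both strands. It was found in 10 of the 14 listed genes with a promoter in the table, against 3.49% of all promoters, 3.27% of those of all genes tested, 7% of those called lower and 2.08% of those called higher at a mean log2 CPM over 1. Capitals mark the matches, of which Isg15 holds 3 that overlap and Ifit3 2 on the opposite strand.
Isg15: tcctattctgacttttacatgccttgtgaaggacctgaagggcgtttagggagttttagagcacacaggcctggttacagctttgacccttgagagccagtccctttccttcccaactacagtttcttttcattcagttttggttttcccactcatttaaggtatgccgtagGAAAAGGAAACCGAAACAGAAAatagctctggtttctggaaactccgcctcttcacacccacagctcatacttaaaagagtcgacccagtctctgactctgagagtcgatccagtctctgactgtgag
Ifit3: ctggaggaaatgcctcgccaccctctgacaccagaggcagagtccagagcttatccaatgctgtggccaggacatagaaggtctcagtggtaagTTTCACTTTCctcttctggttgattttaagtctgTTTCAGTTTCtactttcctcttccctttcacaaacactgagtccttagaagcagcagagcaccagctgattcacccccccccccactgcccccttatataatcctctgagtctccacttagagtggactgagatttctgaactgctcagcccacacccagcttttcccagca

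The genes with the largest changes had shorter spans in the genome, given here as a description with no test. Among 12520 protein-coding genes with a mean log2 CPM over 1 and a position in GENCODE vM21, the median span was 27 kb. It was 17.8 kb and 6 exons for the 125 genes that rose by over 3 on the log2 scale, and 18.1 kb and 8 exons for the 221 that fell by over 2. Spans under 10 kb made up 36% and 30.3% of these sets and 21.6% of all. The genes called higher and lower as a whole had medians of 24.2 and 23.2 kb.

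DKO naive cells of the same hosts were stimulated in the same way and measured in libraries of their own. In DKO cells 2820 genes were called higher and 1937 lower, 8.34% and 5.73% of those tested. Median log2 fold changes were 3.80 in WT and 4.96 in DKO cells for the list of NR4A, EGR and NAB genes. This list includes Nr4a1 and Nr4a3, the genes disrupted in DKO cells, so its DKO median does not describe functional NR4A receptors. The medians were 1.52 and 1.79 for ribosome biogenesis and -1.67 and -1.74 for interferon-stimulated genes. The difference of the WT and DKO responses was tested directly, and 1 gene (0.00296% of those tested) passed, with 632 at an unadjusted p under 0.05. That gene was Gpr155, a membrane protein gene on mm10 at chr2:73341506-73386572, which stood at 8.50, 7.57 and 6.86 TPM in WT naive cells and at 31, 15.5 and 16.3 TPM after stimulation. In DKO cells it stood at 7.15, 8.25 and 7.70 TPM before and at 5.62, 2.97 and 2.06 TPM after stimulation. The genotypes thus moved in opposite directions in all 3 chimeras, which the choice of the gene by this test favours. The difference was 2.50 ± 0.37 on the log2 scale (adjusted p = 0.0208, edgeR's quasi-likelihood test). In DESeq2 the adjusted p of Gpr155 was 0.0644, and the 2 genes that passed there were others. For Nr4a2 the log2 fold change was 8.36 in WT and 9.42 in DKO cells, and for Irf4 7.01 and 6.92, with an adjusted p of 1.0 for both differences, which does not show that the responses are equal. Counts on Nr4a1 reached 5300 to 7343 TPM in stimulated DKO cells, so counts over the whole gene do not check its deletion.

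**Figure D5:**
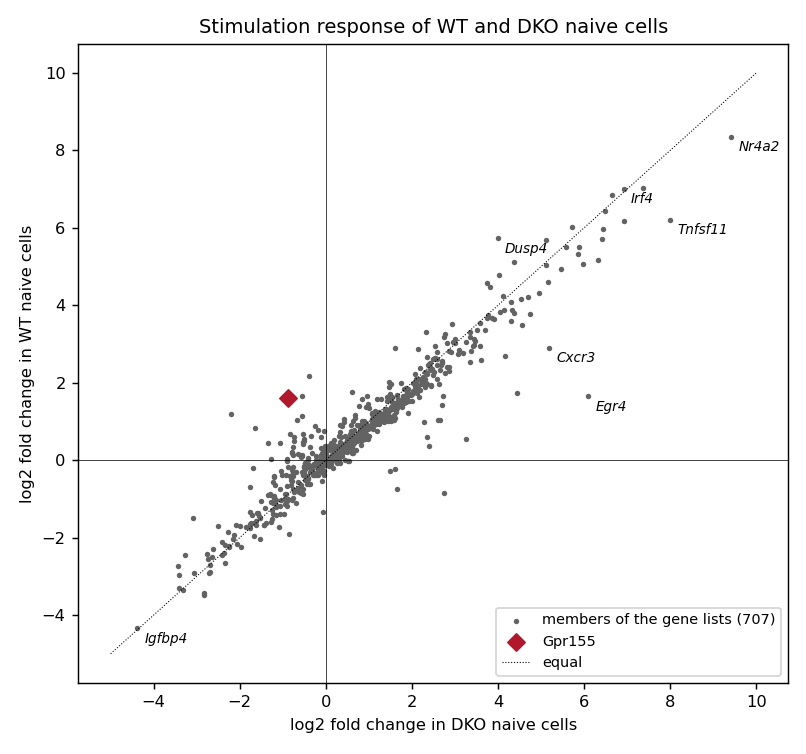
Log2 fold change on stimulation in DKO naive cells (horizontal) and WT naive cells (vertical) for 707 genes of the lists (grey) and for Gpr155 (red diamond). The dotted line marks equal responses. Gpr155 lies at 1.62 in WT and -0.89 in DKO cells, and Nr4a2 at 8.36 and 9.42.

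Anergic CD4+ T cells, which respond poorly after earlier antigen encounter, were sorted from the same hosts as CD44hi, CD62Llo, FR4hi and CD73hi cells and lysed directly. Their levels are set beside those of stimulated naive cells. Irf4 stood at 60.5 ± 4.63 TPM in WT anergic cells against 530 ± 8.26 TPM in stimulated naive cells, and Nr4a1 at 184 ± 12.5 against 4386 ± 1305 TPM. Pdcd1 stood at 1441 ± 249 TPM and Ctla4 at 416 ± 6.14 TPM in anergic cells, above the 175 ± 46.5 and 31.3 ± 4.94 TPM of stimulated cells. Dtx1 stood at 186 ± 28.2 TPM in anergic cells and at 5.20 ± 0.82 TPM after stimulation. No test of these pairs was made.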

How the data were processed

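RNA sequencing libraries (SMART-seq, 2000 sorted cells each) of WT and DKO mouse CD4+ T cells were analysed. The deposited counts per gene were made by the authors with STAR, featureCounts and the mm10 genome. For versions, annotation and strand setting: not given in the sources used here. Reads from overlapping genes on opposite strands therefore cannot be told apart. The deposited TPM were computed by the authors. Deposited tables of the authors' own comparisons (log2 fold changes and p-values) were not used. Of 55401 entries of the count table, 117 had no name, took 0.0654% to 0.136% of each library and stayed out of every test.

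Counts of all 18 libraries were fitted in R 4.3.3 with edgeR 4.0.16 (filterByExpr, TMM, glmQLFit, glmQLFTest), with a term for each of 6 groups and a block for the chimera. The 33795 genes tested share a Benjamini-Hochberg adjustment, and an adjusted p under 0.05 is called. Standard errors were taken as |log2 fold change| over the root of the F statistic. The common dispersion was 0.134. Ratios within a chimera used TMM-scaled log2 CPM with a prior count of 2. Libraries are paired because the labels give the chimera of each, and the study paired them. On log2 CPM with group means removed, the naive and stimulated library of a chimera correlated at 0.239, 0.475 and 0.683 (chimeras 10, 11 and 12), and those of different chimeras at -0.638 to 0.589. The naive library of chimera 10 correlated more with the stimulated one of chimera 11 (0.294) than with its own. That of chimera 11 correlated more with the stimulated one of chimera 10 (0.589). The pairing of chimeras 10 and 11 thus rests on the labels and not on this check. Each chimera is a separate host. Within the WT naive and within the WT stimulated group, no library was a repeat of another. Other pairs of libraries were not compared for repeats.

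The text names members of the gene lists and, outside them, genes called at a mean log2 CPM over 3 with the same direction in all 3 chimeras that were among the 20 largest folds or 15 smallest adjusted p in a direction. Members and lists were chosen with earlier results of these data known. Predicted genes were not named, and a few list members are not reported here. Lists are described by counts and medians only. Promoters were the first entry per gene of a RefSeq table (GRCm38.p6) that held 17567 of the genes tested. The kappaB site and the other motifs were searched on both strands. Coordinates are from GENCODE vM21 (mm10).

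On simulated counts for the WT comparison (32611 genes), 33% of 100 genes changed by 1 and 82% of 100 changed by 2 on the log2 scale were called, with 6 unchanged genes called. The changed genes were drawn from those with a mean log2 CPM over 1. They were far fewer than the 4027 called in the data, which makes the adjusted threshold stricter. These shares therefore do not give the rate of missed genes in the comparison itself. The other settings tried were RLE size factors, no chimera block, TMM factors from genes with log2 CPM over 1, DESeq2 1.42.0, a likelihood ratio test, other filters, libraries of the compared groups alone, limma 3.58.1 (limma-trend) on log2(TPM + 1) and log2(TPM + 0.1), leaving out each chimera, and leaving out the WT naive and stimulated libraries of chimera 12.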

Additional observations from a re-analysis of the deposited data

Results flagged for a closer look

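Gpr155 was the gene whose response to stimulation differed between WT and DKO naive cells by a test of the difference itself. The log2 fold change was 1.62 in WT and -0.89 in DKO cells, a difference of 2.50 ± 0.37 (adjusted p = 0.0208, edgeR's quasi-likelihood test). It had one direction in all 3 chimeras of each genotype, but it was picked by a test on these same libraries. The shared direction is therefore no separate support. Over the alternative fits the difference stayed between 2.14 and 2.78, and the adjusted p ran from 2.87e-06 to 0.438, being above 0.05 with RLE size factors (0.438), DESeq2 (0.0644), only the groups compared (0.0738), log2(TPM + 0.1) in limma-trend (0.0615) and without chimera 10 (0.204) or 11 (0.433). The cause was not tested.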

How the results depend on the processing

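Of 83 genes examined one by one, 73 were called, and 64 of these kept their direction and call under every alternative. The 4027 calls (2408 higher, 1619 lower) became 6136 (3775 higher) with TMM factors from genes with log2 CPM over 1, 6325 (3308 lower) in limma-trend on log2(TPM + 1) and 6240 (3280 lower) on log2(TPM + 0.1). Calls higher were 1411 with RLE size factors and 1599 with no low-count filter, and calls lower were 2977 with only the groups compared. The last 2 settings moved the median of genes with log2 CPM over 1 from 0.06 to -0.12 and -0.14. The study's rule (log2 CPM over 1, log2 fold change over 1.5) gave 684. Leaving out a chimera gave 1752 to 5119 calls (1022 to 2750 higher, 675 to 2369 lower), the fewest without chimera 11, and without chimera 10 calls lower were 675. Without the replicate block, pairing no libraries, 4188 genes were called, 3978 of them shared, and it changed the call of 0 of the 83 genes. For the difference between WT and DKO the 1 call became 0 with RLE size factors or only the groups compared, 2 with DESeq2, 3 on log2(TPM + 0.1) or without the WT libraries of chimera 12, 4 with TMM factors from genes with log2 CPM over 1, 5 on log2(TPM + 1) or in the likelihood ratio test, 10 with no filter, 0 to 4 without a chimera, and stayed 1 without the block. The causes were not tested. A change of 1 on the log2 scale was often missed in simulated counts, where far fewer genes were changed than were called in the data. An uncalled gene is not shown to be unchanged.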
